A study of Mus musculus with 18 samples.

Results

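The lactate and pyruvate transporters described here are 8 genes, chosen by name out of the 54532 genes counted in sorted wildtype (WT) mouse cones. They are the monocarboxylate transporter genes Slc16a1, Slc16a3, Slc16a7, Slc16a8 and Slc16a6, the ancillary protein gene Emb, and the mitochondrial pyruvate carrier genes Mpc1 and Mpc2. Cones were sorted from BALB/c (albino) retinas at postnatal day 21, with 6 control and 6 Txnip libraries, and from C57BL/6J (pigmented) retinas at postnatal day 35, with 3 control and 3 Txnip libraries. All eyes received AAV8 on the day of birth. Control eyes received the vector for H2BGFP, a fluorescent histone driven by the SynP136 promoter, which labels cones for sorting. Txnip eyes received the same vector plus AAV8-RedO-Txnip, in which the human red opsin promoter drives Txnip, an α-arrestin that lowers glucose uptake. Each library was made from 1000 cones. Strain and age change together, so their parts in any difference between the strains cannot be told apart. Whether some retinas came from the same mouse is not given in the sources used here, so p-values measure the spread between these libraries.

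The monocarboxylate transporters of Slc16a1, Slc16a7, Slc16a8 and Slc16a3 move lactate, pyruvate and ketone bodies across the plasma membrane together with a proton, and reach the membrane with a partner glycoprotein, basigin (gene Bsg) or embigin (gene Emb). Other proteins of the Slc16 family carry other substrates. Pyruvate enters the mitochondrion through a carrier in the inner membrane built from the proteins of Mpc1 and Mpc2. Photoreceptors are known for strong aerobic glycolysis and lactate release, while the study asked whether Txnip turns cones towards lactate as a fuel. Its experiments on lactate used degenerating cones of retinitis pigmentosa mice, whereas the cones counted here are WT. The counts bear on the transcripts of the transporters only, not on transport.

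Txnip was at 821 to 1969 CPM (counts per 1000000, on TMM-normalized library sizes) in the 9 Txnip libraries and at 0 to 1.48 CPM in the 9 control libraries. All 12 cone markers were detected in every library and together took 3.63% to 9.60% of the counts. The library totals ran from 647712 to 5172156 counted read pairs, so that a floor of 3 counts stood for 0.580 to 4.63 CPM on the unnormalized total. Rod markers without Sag, which cones also express, took 1.39% of the counts in C57BL/6J control replicate 1 and 0.956% in C57BL/6J Txnip replicate 2, against 0.108% to 0.280% in the other 16 libraries. Müller glia markers took 0.0368% to 0.148% and retinal pigment epithelium (RPE) markers 0.00203% to 0.00917%. In such bulk samples fewer cells of a type and less RNA per cell cannot be told apart.

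The promoters of 3 members are shown because Slc16a1 and Slc16a3 encode the lactate carriers that were detected in every library, and because Emb was the member called between the control groups of the strains. RefSeq entries were found for 6 of the 8 members, with none for Slc16a7 or Slc16a6, and each holds 250 bases before and 50 after a transcription start. Capitals mark the letters CACGTG (the E-box read by Myc-family factors) and ACGTG (the core read by hypoxia-inducible factors), searched on both strands.
Slc16a1, GRCm38.p6, plus strand, chr3:104638414-104638713: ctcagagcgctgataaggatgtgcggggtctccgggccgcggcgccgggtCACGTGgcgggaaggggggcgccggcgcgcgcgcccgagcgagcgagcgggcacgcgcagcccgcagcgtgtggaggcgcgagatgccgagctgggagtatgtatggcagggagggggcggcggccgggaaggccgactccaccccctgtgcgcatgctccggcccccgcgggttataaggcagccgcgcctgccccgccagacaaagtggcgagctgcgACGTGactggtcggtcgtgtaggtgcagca
Slc16a3, GRCm38.p6, plus strand, chr11:120948817-120949116: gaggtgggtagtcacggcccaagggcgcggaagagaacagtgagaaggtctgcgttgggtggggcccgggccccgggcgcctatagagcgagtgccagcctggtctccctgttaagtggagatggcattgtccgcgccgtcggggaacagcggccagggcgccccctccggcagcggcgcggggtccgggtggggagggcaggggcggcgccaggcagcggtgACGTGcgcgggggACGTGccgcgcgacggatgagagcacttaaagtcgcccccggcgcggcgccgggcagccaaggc
Emb, GRCm38.p6, plus strand, chr13:117220323-117220622: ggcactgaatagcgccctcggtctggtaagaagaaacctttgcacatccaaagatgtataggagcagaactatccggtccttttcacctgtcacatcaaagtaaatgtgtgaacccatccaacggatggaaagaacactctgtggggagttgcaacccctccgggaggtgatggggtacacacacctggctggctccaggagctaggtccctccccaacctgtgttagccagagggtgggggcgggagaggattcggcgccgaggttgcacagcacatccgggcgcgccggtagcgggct
The Slc16a1 window held 1 E-box, starting at base 51, which itself contains the shorter core on both strands, and 1 further core at base 271. The Slc16a3 window held cores at bases 224 and 237 and no E-box, and the Emb window held neither. Of 32851 mouse promoter windows of this length, 7.15% held CACGTG and 19.6% held ACGTG. The letters TAATCC, the core read by the photoreceptor factor CRX, were in 7.06% of all windows and in none of the members' windows. These matches describe the letters of the windows and are not evidence of binding.

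Cones of both strains contained abundant transcript of Slc16a1 (MCT1, the widespread carrier that takes lactate in or out) and of Slc16a6 (MCT7, a carrier linked to ketone body export), little of Slc16a3 (MCT4, the carrier typical of lactate-exporting cells), and almost none of Slc16a7 (MCT2, a high-affinity carrier for uptake) or Slc16a8 (MCT3, the carrier of the RPE). Levels were compared between genes as pairs per kilobase of all annotated exons, scaled to 1000000 over all genes. On this scale, the level in BALB/c control cones was 104 ± 20.5 (SD, n = 6) for Slc16a1 and 107 ± 26.1 (SD, n = 6) for Slc16a6. Both ranges overlapped each other, and they lay above those of the 6 other members in every BALB/c control library. Among 14751 genes ranked by their level per length, Slc16a6 stood at 1083 and Slc16a1 at 1131 in BALB/c control cones, and Slc16a1 stood at 847 and Slc16a6 at 1366 in C57BL/6J control cones.

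The level per length of Slc16a1 in C57BL/6J control cones was 134 ± 55.4 (SD, n = 3), and that of Slc16a6 was 90.8 ± 18.7 (SD, n = 3), again with overlapping ranges. Slc16a3 was at 5.31 ± 1.01 (SD, n = 6) per length in BALB/c and 7.75 ± 4.64 (SD, n = 3) in C57BL/6J control cones. Within a library, the level of Slc16a1 was 20.3 ± 6.28 times that of Slc16a3 in BALB/c control cones (SD, n = 6; 11.5 ± 6.28 with Txnip). It was 11.4, 12.8 and 40.0 times in the C57BL/6J control libraries, the last of these in replicate 3, and 5.68 to 23.0 times in the 3 C57BL/6J Txnip libraries. The groups overlapped, and no test was run on the ratio.

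Slc16a8 was at the floor of what the libraries could show, and Slc16a7 was near it. Slc16a7 had 0 to 16 counts in the 12 BALB/c libraries, with medians of 9 in control and 4 in Txnip libraries, above the floor of 3 counts. It had 0 to 6 in the 6 C57BL/6J libraries, with medians of 1 in control and 0 in Txnip libraries. Slc16a8 had 0 to 2 counts in any library and passed the filter on low counts in no comparison. Of the 10 RPE markers listed, Rpe65 had 0 to 3 counts in a library, Best1 0 to 2, Mlana 0 to 1, Tyr 0 to 5, Pmel 0 to 9, and Ttr and Rgr 0 to 12. The other three were higher in some libraries, with 0 to 31 counts for Lrat, 0 to 111 for Dct and 24 to 197 for Rdh5. Dct had 17 to 111 counts in BALB/c and 0 to 6 in C57BL/6J libraries.

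Mpc1 and Mpc2 were both detected in every library. The level per length in BALB/c control cones was 19.8 ± 3.50 for Mpc1 and 21.0 ± 2.87 for Mpc2 (SD, n = 6 each), and the ranges overlapped. In C57BL/6J control cones it was 25.5 ± 9.09 for Mpc1 and 22.7 ± 8.05 for Mpc2 (SD, n = 3 each), also with overlapping ranges. The log2 ratio of Mpc1 to Mpc2, taken per length within each library, was -0.092 ± 0.26 in BALB/c control, 0.0023 ± 0.20 in BALB/c Txnip, 0.16 ± 0.23 in C57BL/6J control and 0.29 ± 0.47 in C57BL/6J Txnip cones.

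The place of Mpc2 depended on the length by which counts were divided. All annotated exons of Mpc2 cover 7344 bases, but its principal transcript has 1025, against 2082 and 958 bases for Mpc1 and 4426 by both definitions for Slc16a1. Per kilobase of the principal transcript, an alternative chosen after the data were seen, Mpc2 was the highest of the 8 members in BALB/c control cones, at 108, above Slc16a6 at 89.6, Slc16a1 at 74.6 and Mpc1 at 31.0. The ranges of Mpc2 and Slc16a6 overlapped. On that scale the log2 ratio of Mpc1 to Mpc2 was -1.81 in BALB/c control and -1.56 in C57BL/6J control cones, so the sign and size of this ratio rest on the choice of length. Slc16a1 and Slc16a6 lay above Slc16a3, Slc16a7 and Slc16a8 on both scales in both control groups.

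**Figure D1:**
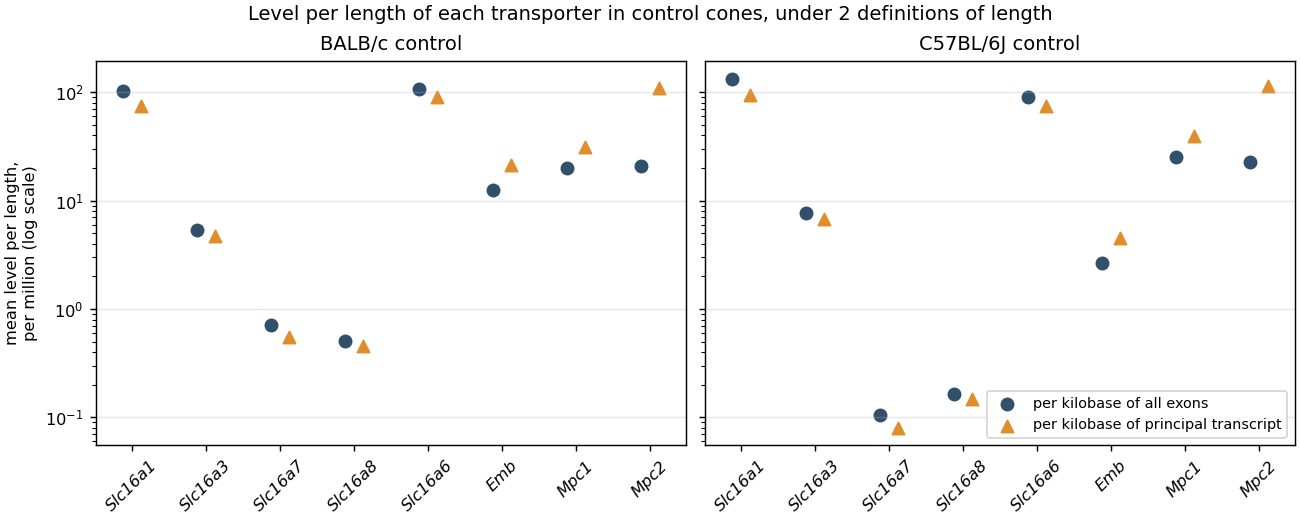
Mean level per length of each member in BALB/c control (n = 6) and C57BL/6J control (n = 3) cones, on a log axis, with counts divided by all annotated exons (circles) or by the principal transcript (triangles); points are group means. In BALB/c control cones Mpc2 moves from 21.0 to 108 between the 2 lengths, while Slc16a1 and Slc16a6 stay far above Slc16a3 on both.

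Some member counts include pairs of neighbouring genes, because the counting did not use strand and gave a pair to every gene whose exons it overlapped. Slc16a6 shares 1052 exonic bases with Amz2 on the opposite strand, and short stretches with Arsg and Gm25540. Their summed counts came to 42.1% to 65.0% of the Slc16a6 count in the control libraries. Were all of those pairs taken away, the level of Slc16a6 per length would be 56.2 ± 16.9 in BALB/c control (SD, n = 6) and 34.2 ± 8.54 in C57BL/6J control cones (SD, n = 3), a lower bound that is still above the levels of Slc16a3 and Emb. Mpc1 shares 480 bases with 4930506C21Rik on the opposite strand, whose count was 42.1% to 103% of that of Mpc1 over the 9 control libraries, and it has a processed pseudogene, Mpc1-ps, that matches 330 bases of its transcript at 99.7% identity and took 1 to 40 counts per library. The counts of Mpc1 are therefore uncertain: with all pairs of 4930506C21Rik taken away, its level per length would be 5.46 ± 3.49 in BALB/c control (SD, n = 6, lowest 0) and 12.1 ± 5.81 in C57BL/6J control cones (SD, n = 3), and its ratio to Mpc2 and its differences between groups carry the same limit. Emb shares 686 bases with Gm17509 on the opposite strand, which had 1 to 27 counts against 5 to 159 for Emb.

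Between the control groups of the strains, Emb was the only member of the 7 tested that was called. Embigin is a membrane glycoprotein of the basigin family that carries monocarboxylate transporters, above all MCT2, to the cell surface. In BALB/c control cones Emb was at 19.2 to 45.4 CPM with a median of 34.2. In C57BL/6J control cones it was at 14.8, 1.79 and 2.22 CPM in replicates 1, 2 and 3, from 41, 5 and 8 counts. All 3 C57BL/6J control libraries lay below all 6 BALB/c control libraries, and replicate 1 lay well above the other two of its group.

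The fit gave Emb a log2 fold change of -2.46 (SE 0.53, 95% interval -3.55 to -1.37, adjusted p = 0.00209 by the quasi-likelihood F test of edgeR, with Benjamini-Hochberg adjustment) for C57BL/6J against BALB/c control cones. A difference with an adjusted p under 0.05 is termed a call. This contrast called 2588 of 14751 genes, 17.5%, and 1404 of them, 9.52%, were lower in C57BL/6J; 1 of the 7 members tested is thus near the share of all genes. Emb was called in all 18 alternative settings, of which 17 fitted the same contrast in another way and 1 compared the Txnip groups of the strains, with log2 fold changes from -4.04 to -2.02, and leaving out C57BL/6J control replicate 1 gave -4.04 (adjusted p = 2.09e-05 by edgeR). Rod, bipolar, amacrine and Müller glia markers were also highest in that library within its group. The amacrine list of 7 genes took 0.0363%, 0.0123% and 0.0112% of the counts in C57BL/6J control replicates 1, 2 and 3, and 0.0279% to 0.0362% in BALB/c control libraries. The Müller glia list took 0.148%, 0.0368% and 0.0781%, against 0.104% to 0.122%. Clu alone held 75.0% to 86.7% of that list's counts in BALB/c control libraries, and without it the list took 0.0970%, 0.00671% and 0.0249%, against 0.0147% to 0.0263%. The bipolar list took 0.0480%, 0.0182% and 0.0314%, against 0.0253% to 0.0322%. The part of these markers in the Emb difference was not tested beyond the rod share. With all pairs of Gm17509 taken away, Emb stood at 16.4 to 39.2 CPM in BALB/c control and 0.716 to 13.3 CPM in C57BL/6J control cones, still without overlap.

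The Txnip libraries share the fit's estimate of spread but not the contrast of control means; a fit of the control groups alone also called Emb (-2.46, adjusted p = 0.00592 by edgeR). In the Txnip libraries Emb was at 12.4 to 39.8 CPM with a median of 36.7 in BALB/c Txnip cones, and at 12.8, 4.04 and 2.54 CPM in replicates 1, 2 and 3 of C57BL/6J Txnip cones. The ranges overlapped by 1 library on each side, the shallow BALB/c Txnip replicate 6, with 8 counts, and C57BL/6J Txnip replicate 1. The log2 fold change between these groups was -2.38 (adjusted p = 0.00234 by edgeR). In C57BL/6J Txnip replicates 1, 2 and 3 the amacrine list took 0.0173%, 0.0227% and 0.0165% of the counts, against 0.0379% to 0.0518% in BALB/c Txnip libraries, and the rod markers without Sag took 0.200%, 0.956% and 0.183% (1.02% to 1.55% with Sag). The Müller glia list without Clu took 0.00880%, 0.0696% and 0.00969%, against 0.0154% to 0.0230%.

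**Figure D2:**
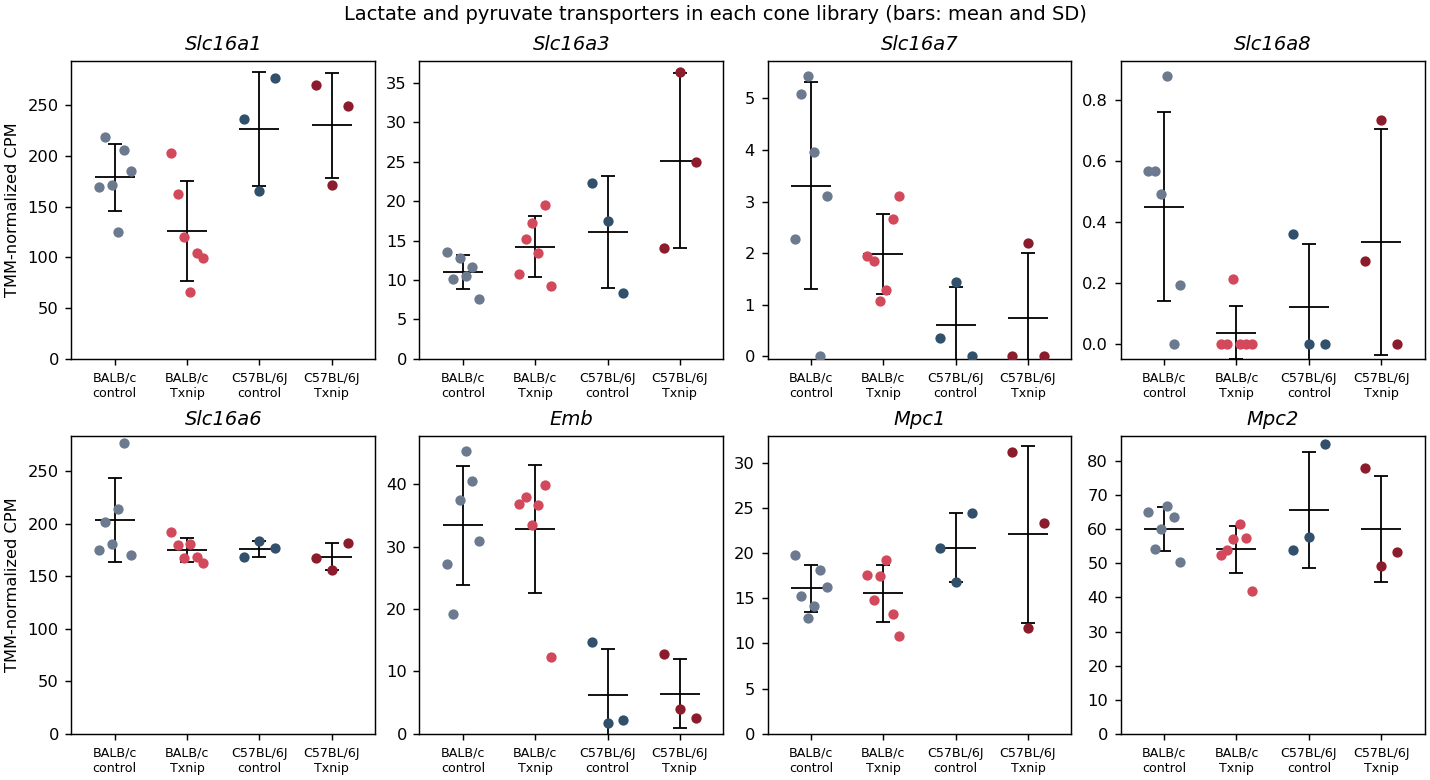
TMM-normalized CPM of each member in every library, by strain and vector; each point is 1 library and the bars give the mean and SD of the group (BALB/c n = 6, C57BL/6J n = 3). Emb is at 19.2 to 45.4 CPM in BALB/c control and at 1.79 to 14.8 CPM in C57BL/6J control cones, while the other members overlap between the control groups.

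The other 6 members tested between the control groups were not called, and their ranges overlapped. Slc16a1 was at 125 to 219 CPM with a median of 178 in BALB/c control cones and at 237, 166 and 277 CPM in C57BL/6J control cones. The log2 difference was 0.34 (SE 0.25, 95% interval -0.18 to 0.85, adjusted p = 0.378 by edgeR). Between the Txnip groups, however, Slc16a1 was higher in C57BL/6J by 0.85 on the log2 scale (95% interval 0.34 to 1.36, adjusted p = 0.0193 by edgeR), in a contrast that called 2599 of 14751 genes, 17.6%, and 2 of the 7 members. C57BL/6J Txnip libraries were at 270, 172 and 249 CPM and BALB/c Txnip libraries at 66.2 to 203 CPM with a median of 112, so that 2 of 3 C57BL/6J libraries lay above all 6 BALB/c libraries.

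Slc16a3 was at 7.57 to 13.6 CPM with a median of 11.1 in BALB/c control cones and at 22.3, 17.5 and 8.32 CPM in C57BL/6J control cones. Its log2 difference was 0.55 (95% interval -0.11 to 1.20, adjusted p = 0.250 by edgeR). The 95% intervals left differences of either sign for Slc16a6 (-0.21, from -0.50 to 0.083), Mpc1 (0.36, from -0.16 to 0.88) and Mpc2 (0.13, from -0.22 to 0.49). With all pairs of its overlapping genes taken away, Slc16a6 stood at 72.4 to 148 CPM in BALB/c control and 64.4 to 68.5 CPM in C57BL/6J control cones, without overlap, so that this comparison of Slc16a6 depends on its shared exons; the reduced values were not tested. Slc16a7 had a log2 fold change of -2.42 (95% interval -4.69 to -0.15, adjusted p = 0.133 by edgeR) from 49 counts in all 6 BALB/c and 5 counts in all 3 C57BL/6J control libraries, which is too few to place it.

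Among 12 other carriers and partners, listed with earlier results known, 6 passed the filter for this contrast, of which 1 rose and 1 fell in C57BL/6J, where 17.5% of all genes were called. Bsg, the gene of basigin, the partner of MCT1 and MCT4, rose by 0.42 on the log2 scale (SE 0.14, adjusted p = 0.0380 by edgeR), from 780 to 961 CPM in BALB/c control to 1057 to 1259 CPM in C57BL/6J control cones. That call was close to the threshold. It held in 10 of 18 alternatives and in 2 of the 9 that left out a library (BALB/c control replicate 2 or 5). Where it was lost the adjusted p was 0.0560 to 0.190 by edgeR, and the log2 difference was 0.33 to 0.50 over all alternatives. Every C57BL/6J control library was above every BALB/c control library for Bsg, while between the Txnip groups 2 of 3 were. Slc16a14, an orphan member of the transporter family, fell by 3.57 (adjusted p = 0.00965 by edgeR) from a low level of 1.13 to 4.84 CPM to 0 to 0.360 CPM, at most 1 count per library, so its size is poorly determined. It was not called without C57BL/6J control replicate 3 or between the Txnip groups (adjusted p = 0.0816 and 0.195 by edgeR).

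Of 20 enzymes of lactate and pyruvate metabolism, 18 were tested and 3 were called between the control groups, near the 17.5% of all genes. Pkm, the pyruvate kinase gene, rose by 0.47 (adjusted p = 0.0161) and Pdk3, a kinase that inhibits pyruvate dehydrogenase, rose by 0.63 (adjusted p = 0.0125, both by edgeR) on the log2 scale. Without C57BL/6J control replicate 3 neither was called (adjusted p = 0.0930 for Pkm and 0.0652 for Pdk3 by edgeR), and Pdk3 was also not called without replicate 2 (adjusted p = 0.0666). Me3, a mitochondrial malic enzyme gene, fell by 3.29 on the log2 scale (adjusted p = 1.34e-04 by edgeR) and was called in all 18 alternatives. It had 42, 9 and 3 counts in C57BL/6J control replicates 1, 2 and 3, and the log2 fold change ran from -4.97 to -2.71 over the alternatives, with -4.96 without replicate 1. Ldha, of the lactate dehydrogenase subunit that favours lactate, was 0.43 higher (95% interval 0.10 to 0.76, adjusted p = 0.0643 by edgeR), and Ldhb, of the subunit that favours pyruvate, 0.14 higher (95% interval -0.43 to 0.71, adjusted p = 0.779 by edgeR), neither of them called; Ldha was called in 4 of 18 alternatives. The median log2 fold change was 0.13 over the 7 members tested, -0.014 over the 18 enzymes and -0.0012 over all genes.

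The comparison of Txnip with control cones asked whether the vector changed the transcripts of the transporters. In BALB/c, 0 of the 6 members tested were called, in a contrast that called 2 of 12017 genes, 0.0166% (1372 genes at an unadjusted p under 0.05, 76 genes and 0 members by DESeq2). Of the members, Slc16a1 was at the lowest unadjusted p. Its 6 control libraries were at 125 to 219 CPM with a median of 178, and its 6 Txnip libraries at 66.2 to 203 CPM with a median of 112. Of the Txnip libraries, 4 lay below all controls, and the highest of them, replicate 1, was at 203 CPM. Between the same groups the amacrine markers took 0.0279% to 0.0362% of the counts in control and 0.0379% to 0.0518% in Txnip libraries, without overlap, and the rRNA locus genes 6.10% to 15.9% and 12.1% to 16.5%. Their part in the Slc16a1 difference was not tested, other than by leaving out the mitochondrial and rRNA locus genes, which gave -0.47 (adjusted p = 0.341 by edgeR).

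The log2 difference of Slc16a1 was -0.47 (SE 0.19, 95% interval -0.88 to -0.071, unadjusted p = 0.0236, adjusted p = 0.333 by edgeR). The two-sided exact permutation test of log2 CPM gave p = 0.0455 (n = 6 and 6, not adjusted). The log2 difference from the fits stayed negative, from -0.68 to -0.35, over 20 alternatives, with adjusted p from 0.00103 to 0.588. It was called in 2 of them. One tested all genes with at least 1 count (-0.48, adjusted p = 0.00103 by edgeR). That fit called 1400 of 40933 genes, 1235 of them lower, and the median log2 fold change over its genes was -0.23. The other left out BALB/c Txnip replicate 1 (-0.68, adjusted p = 0.0424 by edgeR, in a fit that called 258 of 12110 genes, 242 of them lower). The call for Slc16a1 thus depended on the filter and on 1 library.

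**Figure D3:**
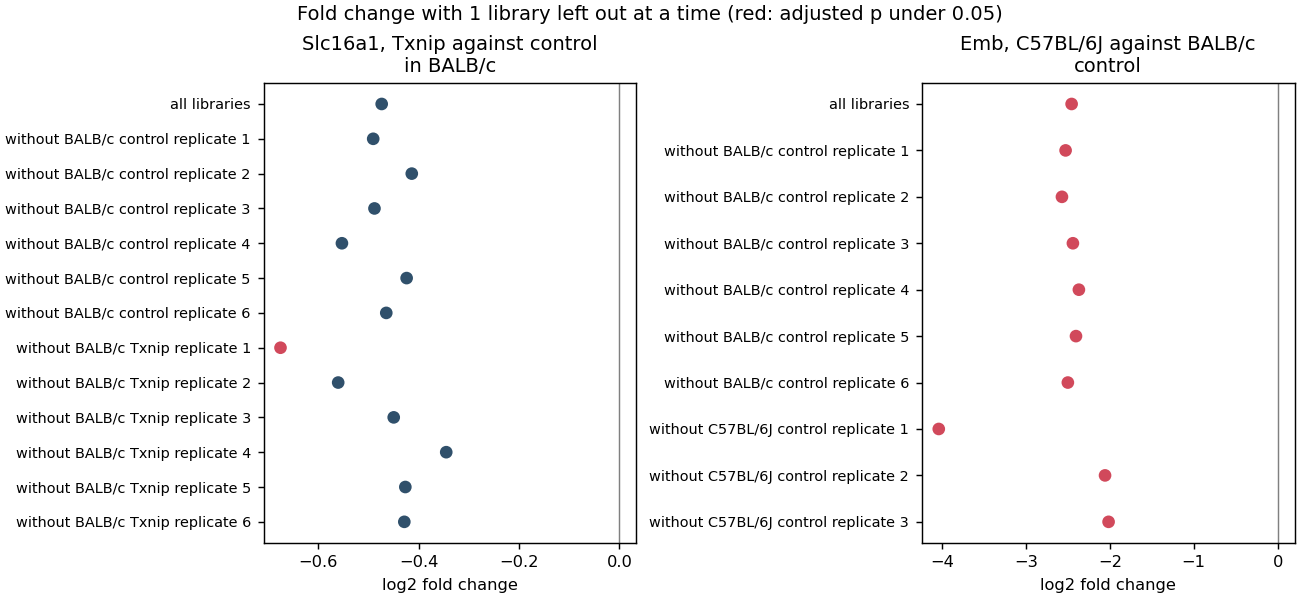
Log2 fold change of Slc16a1 (Txnip against control in BALB/c) and of Emb (C57BL/6J against BALB/c control) with all libraries and with 1 library left out at a time; red points have an adjusted p under 0.05. Slc16a1 is called only without BALB/c Txnip replicate 1, at -0.68, and Emb is called throughout, with -4.04 when C57BL/6J control replicate 1 is left out.

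The other members tested in BALB/c had adjusted p-values from 0.460 to 0.994. Slc16a3 was at 9.30 to 19.5 CPM with a median of 14.4 in Txnip cones, against 7.57 to 13.6 CPM in controls, a log2 difference of 0.40 (95% interval -0.054 to 0.86, adjusted p = 0.490 by edgeR), and 3 of 6 Txnip libraries lay above all controls. Slc16a6 differed by -0.21 (95% interval -0.44 to 0.012), with 3 of 6 Txnip libraries below all controls. With all pairs of its overlapping genes taken away it would be at 72.4 to 148 CPM (mean 106) in control and 67.2 to 91.8 CPM (mean 78.7) in Txnip cones, values that were not tested. The differences for the mitochondrial carrier were -0.0069 (-0.39 to 0.37) for Mpc1 and -0.13 (-0.36 to 0.095) for Mpc2 on the log2 scale, and for Emb 0.015 (-0.41 to 0.44). These intervals exclude a doubling of Mpc1, Mpc2 or Emb transcript in BALB/c cones, within the limits given above for the Mpc1 count.

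In C57BL/6J, 0 of the 6 members tested were called, in a contrast that called 2 of 12974 genes, 0.0154% (97 at an unadjusted p under 0.05, and 0 members by DESeq2). Slc16a1 was at 237, 166 and 277 CPM in control and 270, 172 and 249 CPM in Txnip cones, with a log2 difference of 0.019 (95% interval -0.55 to 0.59). Slc16a3 was at 22.3, 17.5 and 8.32 CPM in control and 14.1, 36.3 and 24.9 CPM in Txnip cones, a difference of 0.65 (95% interval -0.38 to 1.68). The groups overlapped for both carriers.

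Slc16a6 was at 168, 184 and 177 CPM in control and 167, 156 and 182 CPM in Txnip cones of C57BL/6J, the smallest spread relative to the mean among the members. Mpc1 was at 20.5, 16.8 and 24.4 CPM in control and 31.2, 11.7 and 23.3 CPM in Txnip cones, and Mpc2 at 54.0, 57.6 and 85.1 against 77.9, 49.2 and 53.3 CPM. Their log2 differences were -0.068 (95% interval -0.48 to 0.34) for Slc16a6, 0.095 (-0.70 to 0.89) for Mpc1 and -0.13 (-0.70 to 0.43) for Mpc2. The interval for Emb, 0.031 (-1.96 to 2.02), leaves both a large rise and a large fall possible. With all pairs of its overlapping genes taken away, the mean of Slc16a6 would be 65.8 CPM in control and 75.0 CPM in Txnip cones, the opposite direction, so that the sign of its difference depends on the shared exons. These intervals are wider than in BALB/c, with 3 against 6 libraries a group and a larger spread between replicates. The biological coefficient of variation from edgeR, which gives that spread relative to the mean, was 34.297% in C57BL/6J and 18.019% in BALB/c. The parts of group size and spread in the wider intervals were not tested.

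The effect of Txnip was not shown to differ between the strains for any member. The test of that difference called 0 of 14751 genes, 0%, with edgeR (706 at an unadjusted p under 0.05, and 0 genes with DESeq2), and 0 of the 7 members tested. For Slc16a1 the effect in C57BL/6J minus that in BALB/c was 0.51 on the log2 scale (95% interval -0.23 to 1.25), which includes no difference as well as one larger than the effect in BALB/c itself. Emb, at 0.077 (-1.39 to 1.55), was the least certain of the members with more than a few counts. Of the 12 other carriers, 1 was tested for Txnip in BALB/c, 4 in C57BL/6J and 6 for the difference between strains, and of the 20 enzymes 18, 17 and 18, and 0 of those tested were called. Slc16a10, an amino acid and thyroid hormone carrier named here after its values were seen, did not pass the filter in BALB/c. It was at 2.26 to 8.63 CPM in BALB/c control and 0 to 2.43 CPM in BALB/c Txnip cones, from at most 29 counts, and 5 of 6 Txnip libraries lay below all controls. The two-sided exact permutation test of log2 CPM gave p = 0.00433 (n = 6 and 6, not adjusted). It was not called in the 2 edgeR alternatives that tested it (adjusted p = 0.113 with all genes of at least 1 count and 0.286 in 1 fit of all 4 groups), and DESeq2 gave it no adjusted p (unadjusted p = 0.0120). The median log2 fold change over the members tested was -0.070 for Txnip in BALB/c, where all genes tested had 0.00024. For Txnip in C57BL/6J it was 0.025, where all genes tested had 0.012.

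**Figure D4:**
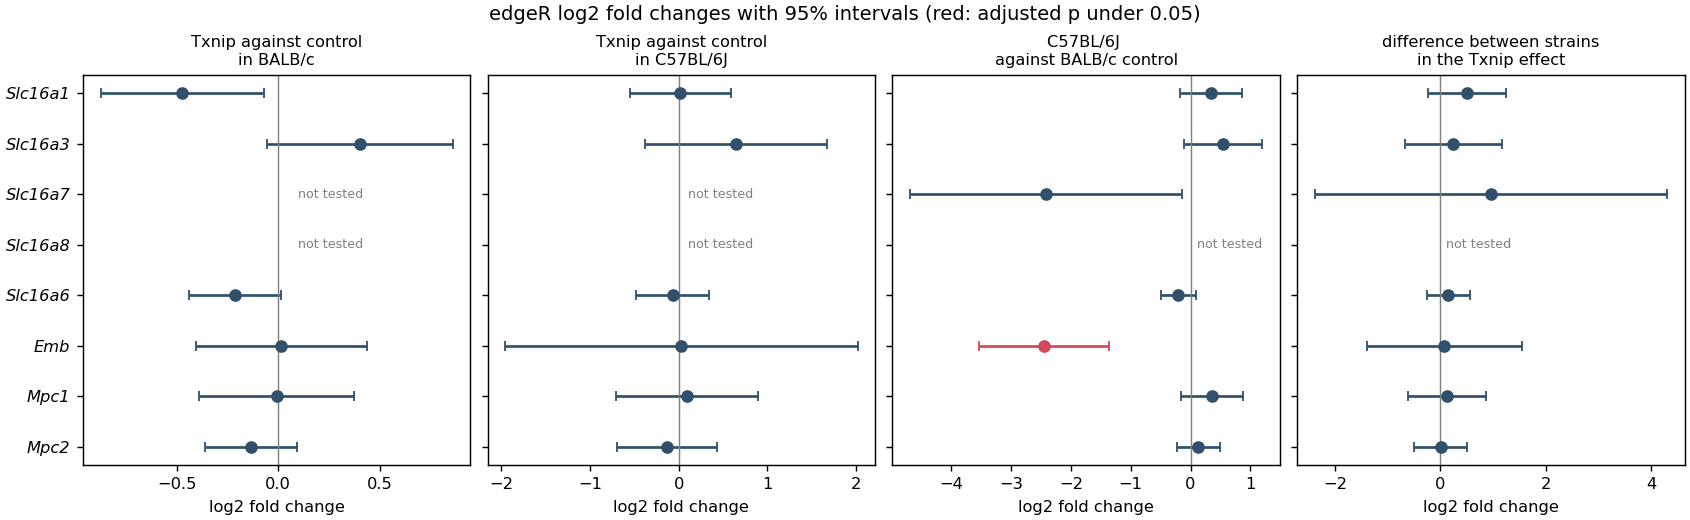
Log2 fold changes of the members from edgeR with 95% intervals in the 4 contrasts, with a separate axis range for each; red marks an adjusted p under 0.05. Only Emb between the control groups, at -2.46, is red, and Slc16a1 with Txnip in BALB/c, at -0.47, has an interval that leaves out 0 without passing the adjustment.

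Genes whose pattern was most like that of a member were sought by Pearson's r of log2 CPM over the 18 libraries, which share the difference in strain and depth. Of 7375 genes at or above the median level, those most like Slc16a1 were Gm20458 (r = 0.92), Rab28 (r = 0.92) and Fbxo9 (r = 0.90). Those most like Emb, among 7376 genes, were 2900011O08Rik (r = 0.96), Cacng5 (r = 0.96) and Chn1 (r = 0.95). These values describe the order of the libraries and carry no test.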

How the data were processed

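RNA-seq libraries of 1000 sorted cones were made by a modified Smart-Seq2 protocol. The authors counted read pairs on exons with featureCounts 1.6.2 and Ensembl 94 (GRCm38.p6) and deposited raw counts per gene; the submitters' processing notes also name STAR and DESeq2. The command used no strand and gave a pair to each overlapping gene. The authors' tables of log2 fold changes, statistics and p-values for called genes were not used. Groups and replicate numbers came from the sample titles. Totals were 647712 to 5172156 pairs, and floors of 3 counts cover counting error only.

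Counts were fitted with edgeR 4.0.16 in R 4.3.3 (TMM, filterByExpr, glmQLFit, glmQLFTest, Benjamini-Hochberg over all genes tested, threshold 0.05), each strain on its own for Txnip and all 4 groups in 1 fit between strains. The study used DESeq2, run here as an alternative (1.42.0). The script was tested on simulated counts. CPM are per TMM-normalized library, and log2 CPM use a prior count of 2. Levels use the exon lengths given by featureCounts with the counts (Ensembl 94), and principal transcript lengths are from GENCODE M21. Copies were sought with BLAST 2.17.0 at 95% identity over 100.0 bases or more. Single values were compared with exact permutation tests in scipy 1.17.1.

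The members, lists and tests were chosen with earlier results of these data known. Named genes are the 8 members, Bsg, Ldha, Ldhb, called genes of the 2 lists, the 3 genes most like Slc16a1 and Emb, and genes sharing exonic bases or a copy with a member. Slc16a10 was added after its values were seen, cell type markers are named as checks, and Nnt is named for the genotype. Alternatives were DESeq2, edgeR with DESeq2 size factors, a filter that kept any gene with 1 count or more, mitochondrial and rRNA locus genes left out, rod share as covariate, 1 fit or separate fits, the Txnip groups in place of the control groups between strains, both C57BL/6J libraries of high rod share left out, the replicate number as a block, each library left out, and, chosen after seeing the data, rod share without Sag, the Müller glia list without Clu and the principal transcript length.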

Additional observations from a re-analysis of the deposited data

Results flagged for a closer look

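In 2 of the 18 sets of 6 values checked (each member and the Mpc1 to Mpc2 ratio in each BALB/c group), 1 library stood far from the rest by Dixon's criterion. For normally distributed values, chance alone meets this criterion in about 1 of 20 sets. Emb in BALB/c Txnip cones was at 12.4 CPM in replicate 6, the lowest of its group, where the other 5 libraries were at 33.4 to 39.8 CPM. That value rests on 8 counts in the library with the lowest total, 647712 pairs. Slc16a8 in BALB/c Txnip cones was at 0.213 CPM in replicate 3, where the other 5 libraries were at 0. This is 1 count, and the chance rate above does not apply to such a set, which any single count would flag.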

How the results depend on the processing

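Emb between the control groups was called in every alternative tried, and no other member was called there; between the Txnip groups 2 of 7 members, Emb and Slc16a1, were called, where 17.6% of all genes were. Low counts limited Slc16a7 and Slc16a8. The cause of the following changes was not tested.

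Testing all genes with at least 1 count called 1400 genes and 1 member (Slc16a1) for Txnip in BALB/c, 5 genes in C57BL/6J and 186 for the difference between strains. DESeq2 called 76 genes for Txnip in BALB/c. Without both C57BL/6J libraries of high rod share the difference between strains called 2 genes. Leaving out 1 library gave 2 to 258 genes and 0 to 1 members for Txnip in BALB/c, 1605 to 2489 genes between control groups (1605 without C57BL/6J control replicate 3) and 0 to 1 genes for the difference between strains.

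Signs turned only for values that were not called. Mpc1 with Txnip in BALB/c became 0.00050 without mitochondrial and rRNA genes, 0.025 with rod share without Sag and 0.0025 with DESeq2, and Slc16a1 in C57BL/6J became -0.0043 with all genes of at least 1 count. For the difference between strains, Mpc2 became -0.0044 with DESeq2 size factors, -0.029 with rod share without Sag and -0.0084 with DESeq2, and Slc16a7, 0.96 with all libraries, became -3.20 without both libraries of high rod share.

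With 1 library left out, log2 fold changes with Txnip in BALB/c ran from -0.061 to 0.050 for Mpc1 and -0.092 to 0.12 for Emb. In C57BL/6J they ran from -0.16 to 0.18 for Slc16a1, -0.21 to 0.37 for Mpc1, -0.34 to 0.088 for Mpc2 and -0.91 to 1.65 for Emb. Between control groups Mpc2 ran from -0.10 to 0.24. For the difference between strains the ranges were -0.12 to 0.57 for Slc16a3, -3.00 to 2.55 for Slc16a7, -0.21 to 0.40 for Mpc1, -0.23 to 0.24 for Mpc2 and -0.94 to 1.65 for Emb.

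The log2 ratio of Mpc1 to Mpc2 without division by length was -1.91, -1.82, -1.66 and -1.53 in BALB/c control, BALB/c Txnip, C57BL/6J control and C57BL/6J Txnip cones, and -1.81, -1.72, -1.56 and -1.43 by principal transcript.

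Replicate numbers did not pair the libraries: deviations of libraries with the same number correlated at -0.065 to 0.099 in BALB/c and -0.11 to 0.078 in C57BL/6J, and 1 of 6 and 0 of 3 pairs correlated best with their own number. With the replicate block, 3 genes and 0 members were called in BALB/c and Slc16a1 was at -0.56 (adjusted p = 0.112 by edgeR).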
